A study of Mus musculus with 17 samples.

Results

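miR-146a-5p, miR-146b-5p and miR-155-5p are microRNAs (miRNAs) widely studied in inflammatory signalling. They were taken by name from a quantitative PCR panel run on mouse serum, where they are 3 of 357 miRNA assays. A rat-named assay for miR-146b-5p is also on the panel and is given beside the mouse-named assay, because it carries the same miRNA name and is not counted as an independent measurement. The 3p arms of these miRNAs are not on the panel. The wild-type group held 3 healthy FVB/N mice. Both other groups were AT-ATX mice, which carry a transgene for Autotaxin, a secreted enzyme that makes the signalling lipid lysophosphatidic acid: 7 animals had no tumors and 7 had spontaneous tumors. Each label names 1 mouse. The age of the animals, the site of the tumors and the promoter of the transgene are not given in the sources used here, and whether all mice were bled and processed together is not stated either. The wild-type group therefore differs from both transgenic groups in the transgene and in anything else that was not matched, and these cannot be told apart.

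miRNAs are short RNAs that guide Argonaute proteins to messenger RNAs, mostly through their seed, the bases at positions 2 to 8. The miR-146a gene is switched on by NF-kB after Toll-like or cytokine receptor signalling. Its product lowers the adaptors Irak1 and Traf6, which makes it a brake on the pathway that induces it. miR-155 is cut from the transcript of the host gene Mir155hg, is induced in activated lymphocytes and macrophages, and lowers negative regulators such as Socs1 and Inpp5d. Serum holds miRNAs released by blood cells and by tissues, so a level in serum does not name the cell it came from.

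The mature sequences below, from RefSeq on the mouse build GRCm38.p6 and written 5′ to 3′ with the seed in capitals, show which members could share targets and how close the miR-146 pair is.
miR-146a-5p: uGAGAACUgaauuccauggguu
miR-146b-5p: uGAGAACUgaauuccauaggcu
miR-155-5p: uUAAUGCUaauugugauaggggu
miR-146a-5p is encoded by Mir146 at chr11:43374435-43374456 on the minus strand, where no other annotated gene overlaps the hairpin. miR-146b-5p is encoded by Mir146b at chr19:46342790-46342811 on the plus strand, within the long noncoding RNA gene Gm36493. miR-155-5p is encoded by Mir155 at chr16:84714143-84714165 on the plus strand, within the long noncoding RNA gene Mir155hg. miR-146a-5p and miR-146b-5p are identical at 20 of 22 bases. They differ by G18A and U21C, with positions counted from the 5′ end and the base of miR-146a-5p given first, and both substitutions lie outside the seed. The seed GAGAACU is carried by 2 of the 1679 mature miRNA names in the RefSeq table, these 2, and the seed UAAUGCU by 1, miR-155-5p. No sequence was at hand for the rat-named assay. How far each assay cross-reacts with the other miR-146 RNA was not tested.

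The deposited values are quantification cycles (Ct), where a lower Ct means more template. miR-146a-5p was detected in all 17 sera at a median Ct of 27.8 and ranked between the 27th and the 142nd lowest Ct of its sample. miR-146b-5p was detected in all 17 sera at a median Ct of 31.6. miR-155-5p was the least readily detected of the 3, with a median Ct of 33.8 in the 16 sera that gave a value, and it was not detected in tumor replicate 4. Its highest Ct, 36.4 in tumor replicate 1, lies close to a Ct of 37, which no deposited value exceeds. Ct differences between assays also depend on each assay's efficiency, so the miRNAs are compared with each other only as differences between groups.

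Between 312 and 356 of the miRNA assays were detected per sample. The level of a miRNA was taken as the mean Ct of the 252 assays detected in every sample minus its own Ct, which is a log2 scale relative to the panel and not an amount per volume of serum. Hemolysis was read from miR-451a, a red cell miRNA: the index is how many cycles earlier it appeared than miR-23a-3p. It was 3.71, 5.28 and 7.82 in the wild-type mice, 3.56 to 5.54 in the tumor-free mice and 2.21 to 7.09 in the tumor mice. A higher index means more miR-451a relative to miR-23a-3p, so the index also rises where miR-23a-3p is lower. Against wild type, tumor mice differed by 1.20 in miR-23a-3p and by -0.43 in miR-451a (limma adjusted p = 0.141 and 0.754). The index therefore does not measure red cell miRNA alone. Of the marker lists of blood and tissue sources, all members on the panel were detected in all samples, so none was at 0.

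mmu-miR-146a-5p was lowest in the wild-type mice, with levels of -0.20, -0.85 and -0.10. The tumor-free transgenic mice ranged from 0.71 to 4.38 with a median of 1.71. The tumor mice ranged from 0.51 to 3.23 with a median of 1.63. Every transgenic serum lay above every wild-type serum, while the transgenic groups overlapped. Tumor-free replicate 7 stood apart at 4.38, against 1.94 for the next highest mouse of its group.

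mmu-miR-146b-5p was more variable in the wild-type mice, with levels of -2.31, -3.24 and -4.53. The tumor-free mice ranged from -3.12 to -0.0047 with a median of -2.01. The tumor mice ranged from -3.35 to -0.24 with a median of -1.64. In each transgenic group 4 of 7 mice lay above all wild-type mice, so the groups overlapped. The rat-named assay gave 0.52, -2.09 and -1.83 in the wild-type mice, -0.71 to 1.32 in the tumor-free mice and -1.99 to 2.30 in the tumor mice. It read higher than the mouse-named assay in every serum, by 2.08 ± 0.54 (SD, n = 17), and the assays followed each other: after group means were taken off, Pearson's r was 0.89 over 17 samples. Wild-type replicate 1, at 0.52 with the rat-named assay, lay inside the range of both transgenic groups.

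mmu-miR-155-5p levels in the wild-type mice were close together, at -5.86, -6.12 and -5.62. The tumor-free mice ranged from -4.49 to -1.83 with a median of -4.06, and all 7 lay above all wild-type mice. The 6 tumor mice with a value ranged from -6.44 to -2.55 with a median of -4.54. Tumor replicate 5 lay below every wild-type mouse and the other 5 above. The undetected tumor replicate 4 would lie at -6.74 if its Ct were 37, below every measured serum. Replicate 7 was again the highest tumor-free mouse, at -1.83 against -3.54 for the next.

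**Figure D1:**
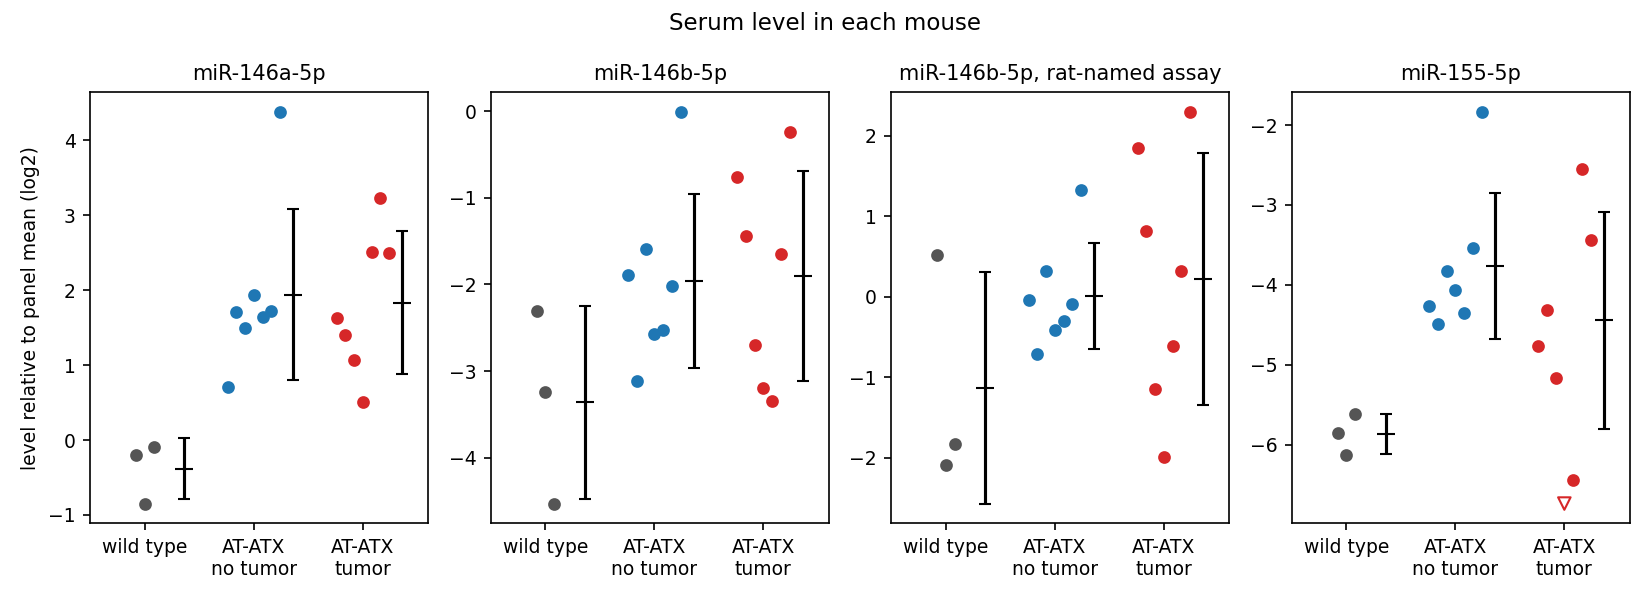
Level of each miRNA relative to the panel mean (log2, vertical axis) in each mouse (points, in replicate order within a group), with the mean and SD of the detected values as a bar beside each group; n = 3 wild-type, 7 tumor-free and 7 tumor mice. For miR-146a-5p all transgenic points lie above all wild-type points, and for miR-155-5p all 7 tumor-free points do; the open triangle marks the undetected tumor replicate 4 placed at -6.74.

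Tumor-free transgenic mice were first set against wild-type mice, a comparison of the transgene without tumors. miR-146a-5p was 2.32 higher on the log2 scale (SE 0.66, 95% interval 0.95 to 3.70), which is 5.0-fold, but it did not pass after adjustment over 338 assays (limma, Benjamini-Hochberg adjusted p = 0.0899). miR-155-5p was 2.10 higher (SE 0.69, 95% interval 0.66 to 3.54, 4.29-fold, limma adjusted p = 0.141). By p-value, miR-146a-5p was the 8th and miR-155-5p the 16th of the 338 assays. miR-146b-5p was 1.40 higher (SE 0.72, 95% interval -0.11 to 2.91, limma adjusted p = 0.240), and the rat-named assay 1.14 (SE 0.79, limma adjusted p = 0.410). None of the 3 members passed, where 0.592% of all assays did. For miR-146a-5p and miR-155-5p no tumor-free serum overlapped the wild-type sera, where 6.8% of all assays lay wholly above and 5.92% wholly below. Without tumor-free replicate 7 the differences were 1.92 for miR-146a-5p and 1.78 for miR-155-5p (limma adjusted p = 0.104 and 0.177). On raw Ct the differences were 1.30 for miR-146a-5p and 1.08 for miR-155-5p (limma adjusted p = 0.506 and 0.556), and with spike-ins 1.24 and 1.02 (limma adjusted p = 0.500 and 0.554), while the median of all assays was 1.07 and 1.12 lower than in wild type.

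Tumor-bearing mice were next set against the same 3 wild-type mice, so both comparisons share those sera. miR-146a-5p rose by 2.22 on the log2 scale (SE 0.66, 95% interval 0.84 to 3.59, 4.64-fold, limma adjusted p = 0.0419) and was higher in 7 of 7 tumor mice than in any wild-type mouse. It ranked 25th by p-value. It was the member that passed, 1 of 3, where 8.28% of all assays passed and 4.14% passed as higher. Assays lying wholly above wild type made up 5.33% of the panel here. miR-155-5p was 1.42 higher (SE 0.71, 95% interval -0.06 to 2.90, limma adjusted p = 0.220) and miR-146b-5p 1.46 higher (SE 0.72, 95% interval -0.05 to 2.96, limma adjusted p = 0.218). The rat-named assay was 1.35 higher (SE 0.79, limma adjusted p = 0.298). With tumor replicate 4 set to a Ct of 37, the miR-155-5p difference was 1.10, and without tumor replicate 5, whose label carries a question mark, it was 1.82 (limma adjusted p = 0.0732). Liver miRNAs were lower in the same comparison: all 4 markers measured were below 0 and 2 of 4 passed as lower, as given with the markers of cell sources. Of all assays, 54.1% were above 0. The part of the liver miRNAs in the miR-146a-5p difference was not tested.

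The miR-146a-5p call against wild type lies near the threshold. It was lost in 13 of the 17 fits that each left out 1 mouse, where the difference was 1.98 to 2.44 and the limma adjusted p of the lost calls ran from 0.0507 to 0.163; it was kept in the fits that lacked tumor-free replicate 1, tumor-free replicate 7, tumor replicate 3 and tumor replicate 4. The 28 assays passing over the whole panel were 5 without wild-type replicate 3, 17 without wild-type replicate 2 and 44 without tumor replicate 4. The call was also lost in 8 of 16 other settings, 1 of them the exact permutation test, under which no assay passed and which cannot give a p below 0.00833 with 7 mice against 3. On raw Ct, with no scaling at all, miR-146a-5p was 0.84 higher in the tumor mice (limma adjusted p = 0.624) while the median of all assays was 1.22 lower. Scaled to the spike-in controls it was 1.10 higher (limma adjusted p = 0.601), with the median of all assays 0.94 lower.

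The size of the difference from wild type depended on the scaling. The panel mean, raw Ct and spike-ins shift all assays of a serum by the same amount, so a difference from the median assay is nearly fixed between them: for miR-146a-5p in tumor mice it was 2.03, 2.05 and 2.04. Quantile normalization does not shift all assays alike. With it, miR-155-5p differed from wild type by 1.45 in tumor-free mice and 0.58 in tumor mice (limma adjusted p = 0.295 and 0.718), against 2.10 and 1.42 with the panel mean. All 3 members were above 0 against wild type in every setting run, in both transgenic groups. The lowest of these differences was 0.08, for miR-146b-5p in tumor mice on raw Ct. With the rat-named assay the same difference on raw Ct was -0.03. With the hemolysis index in the model, the difference in tumor mice was 1.78 for miR-146a-5p (limma adjusted p = 0.0930), 0.59 for miR-155-5p and 0.69 for miR-146b-5p. In tumor-free mice with the same covariate it was 2.00 for miR-146a-5p, 1.63 for miR-155-5p and 0.82 for miR-146b-5p.

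**Figure D2:**
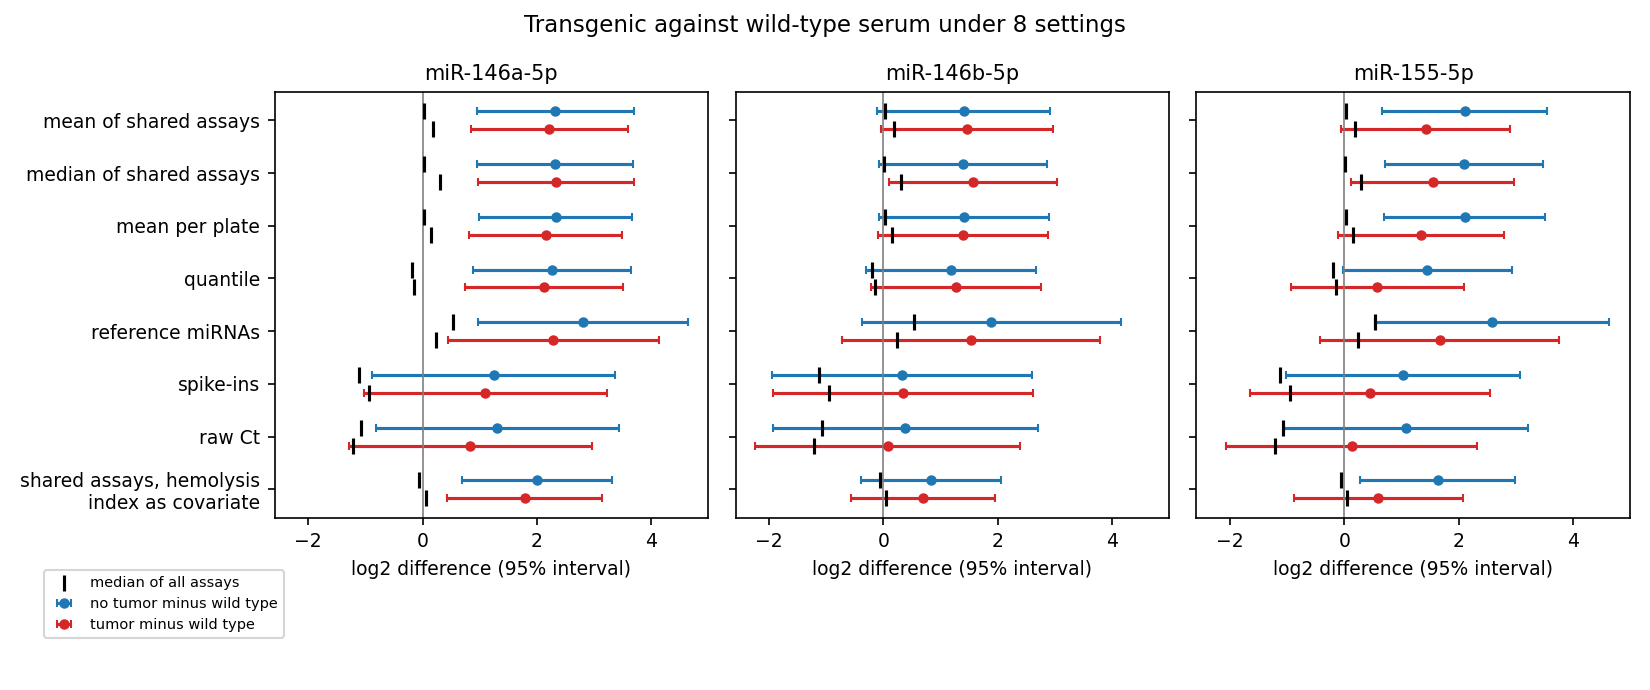
Difference from wild type (log2, horizontal axis; points with 95% intervals from limma) of each miRNA in tumor-free and tumor transgenic mice under 8 settings (rows); black ticks give the median difference of all assays tested. All points lie above 0, and with spike-ins or raw Ct both the points and the ticks shift to the left, so that miR-146a-5p in tumor mice moves from 2.22 to 1.10 and 0.84.

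Tumor mice were then set against tumor-free mice of the same transgene. The age of the mice and whether they were bled together are not given. The tumor and anything else not matched between these groups therefore cannot be told apart. No member passed, where 1.48% of all assays did. miR-146a-5p differed by -0.11 (SE 0.51, 95% interval -1.17 to 0.96, limma adjusted p = 0.916). miR-146b-5p differed by 0.06 (SE 0.56, 95% interval -1.11 to 1.22, limma adjusted p = 0.943) and the rat-named assay by 0.21 (SE 0.61, limma adjusted p = 0.866). The direction for either miR-146 changed with the scaling, and the intervals leave room for changes of about a factor of 2 in either direction. miR-155-5p differed by -0.68 (SE 0.56, 95% interval -1.84 to 0.48, limma adjusted p = 0.589), and 3 of 6 detected tumor sera lay below all tumor-free sera. This difference was -1.01 with tumor replicate 4 at a Ct of 37, -1.06 without tumor replicate 6, -0.36 without tumor-free replicate 7 and -0.28 without tumor replicate 5. The spread of miR-155-5p was 1.36 (SD, n = 6) among tumor mice, 0.91 (SD, n = 7) among tumor-free mice and 0.25 (SD, n = 3) among wild-type mice; this difference in spread was not tested.

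The difference between 2 of these miRNAs within a serum needs no scaling, because anything common to the sample cancels. miR-146a-5p minus miR-155-5p was 5.49 ± 0.20 (SD, n = 3) in wild-type mice, 5.71 ± 0.51 (SD, n = 7) in tumor-free mice and 6.50 ± 1.23 (SD, n = 6) in tumor mice. The tumor-free and wild-type means therefore lay 0.22 apart, while each miRNA alone was more than 2 higher than in wild type. Among tumor mice, replicate 5 stood at 8.95 and the others between 5.71 and 6.39. That serum combined a miR-146a-5p level of 2.51, among the highest of its group, with the lowest measured miR-155-5p level.

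miR-146a-5p minus miR-146b-5p was 2.98 ± 1.27 (SD, n = 3) in wild-type mice, 3.90 ± 0.81 (SD, n = 7) in tumor-free mice and 3.74 ± 1.26 (SD, n = 7) in tumor mice. miR-146b-5p minus miR-155-5p was 2.51 ± 1.27 (SD, n = 3), 1.81 ± 0.38 (SD, n = 7) and 2.76 ± 1.04 (SD, n = 6) in the same order. The groups overlapped for both of these pairs. Of the 9 exact two-sided permutation tests over the 3 pairs and 3 comparisons, none passed after adjustment, and the smallest adjusted p was 0.375. The smallest unadjusted p was 0.0443, for miR-146b-5p minus miR-155-5p, which was 0.95 higher in tumor than in tumor-free mice (exact permutation test). Without tumor replicate 6, the lowest tumor serum at 0.90, that difference was 1.32 (exact permutation test, adjusted p = 0.0114). It passed in only that 1 of the 14 tests that each left out 1 mouse. In the other 13 it did not pass, with an adjusted p of up to 0.514 (exact permutation test). The smallest p these exact tests can give is 0.00833 for 7 mice against 3 and 0.0119 for 6 against 3. Between tumor and tumor-free mice it is 0.000583.

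**Figure D3:**
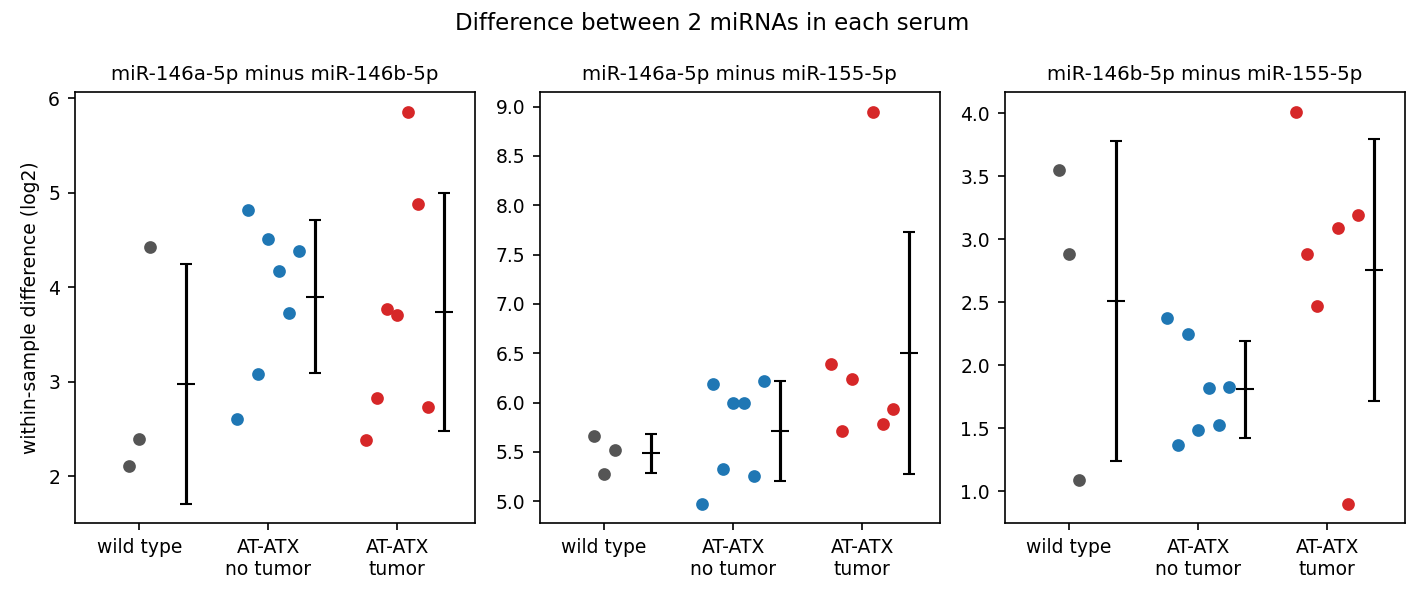
Difference between 2 miRNAs within each serum (log2, vertical axis; points are mice, bars the mean and SD of each group). miR-146a-5p minus miR-155-5p lies between 4.98 and 6.39 in all mice with a value but tumor replicate 5, at 8.95, and the groups overlap for each pair.

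Relations among the 3 miRNAs within groups were clearest for miR-155-5p. After group means were taken off, miR-155-5p and miR-146b-5p correlated with r = 0.68 over 16 sera (permutation p = 0.0100, adjusted p = 0.0450 over 9 relations), with Spearman's rho of 0.56 (permutation p = 0.0347, adjusted p = 0.104). For miR-155-5p and miR-146a-5p, r was 0.65 (permutation p = 0.0228, adjusted p = 0.0683) and rho 0.51 (permutation p = 0.0744, adjusted p = 0.134). For the seed-sharing pair miR-146b-5p and miR-146a-5p, r was 0.47 (permutation p = 0.0758, adjusted p = 0.114) and rho 0.28 (permutation p = 0.315, adjusted p = 0.405). All of these rest on few sera. Without the 2 sera farthest from the median on the horizontal axis, r fell to 0.39, 0.10 and 0.19 in that order. Within the tumor-free mice r was 0.92, 0.90 and 0.72 over 7 sera, and within the tumor mice 0.67, 0.46 and 0.34 over 6, 6 and 7 sera. Levels scaled to spike-ins gave 0.86, 0.84 and 0.79, but those values also share the total amount of miRNA in each serum.

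The levels were also set against the hemolysis index, which depends on miR-23a-3p as well as on miR-451a. miR-146b-5p was lower where the hemolysis index was higher, with r = -0.68 (permutation p = 0.00883, adjusted p = 0.0450) and rho = -0.73 (permutation p = 0.00546, adjusted p = 0.0491) over 17 sera. Without the 2 farthest sera r was -0.73. Within the groups it was -0.60 in tumor-free and -0.88 in tumor mice. For miR-155-5p r was -0.50 (permutation p = 0.0512, adjusted p = 0.114) and rho -0.57 (permutation p = 0.0313, adjusted p = 0.104), and for miR-146a-5p r was -0.43 (permutation p = 0.0684, adjusted p = 0.114) and rho -0.54 (permutation p = 0.0465, adjusted p = 0.105). Red cell miRNAs are themselves part of the panel mean to which these levels are set. With spike-ins r was -0.51 for miR-146b-5p. The mean Ct of the sample gave r of -0.13 for miR-146a-5p, -0.33 for miR-146b-5p and -0.05 for miR-155-5p (permutation p = 0.616, 0.248 and 0.865, adjusted p = 0.693, 0.318 and 0.865), with rho of -0.15, -0.33 and -0.11 (permutation p = 0.578, 0.238 and 0.696, adjusted p = 0.650, 0.358 and 0.696). Without the 2 farthest sera these r were -0.03, -0.42 and 0.13.

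**Figure D4:**
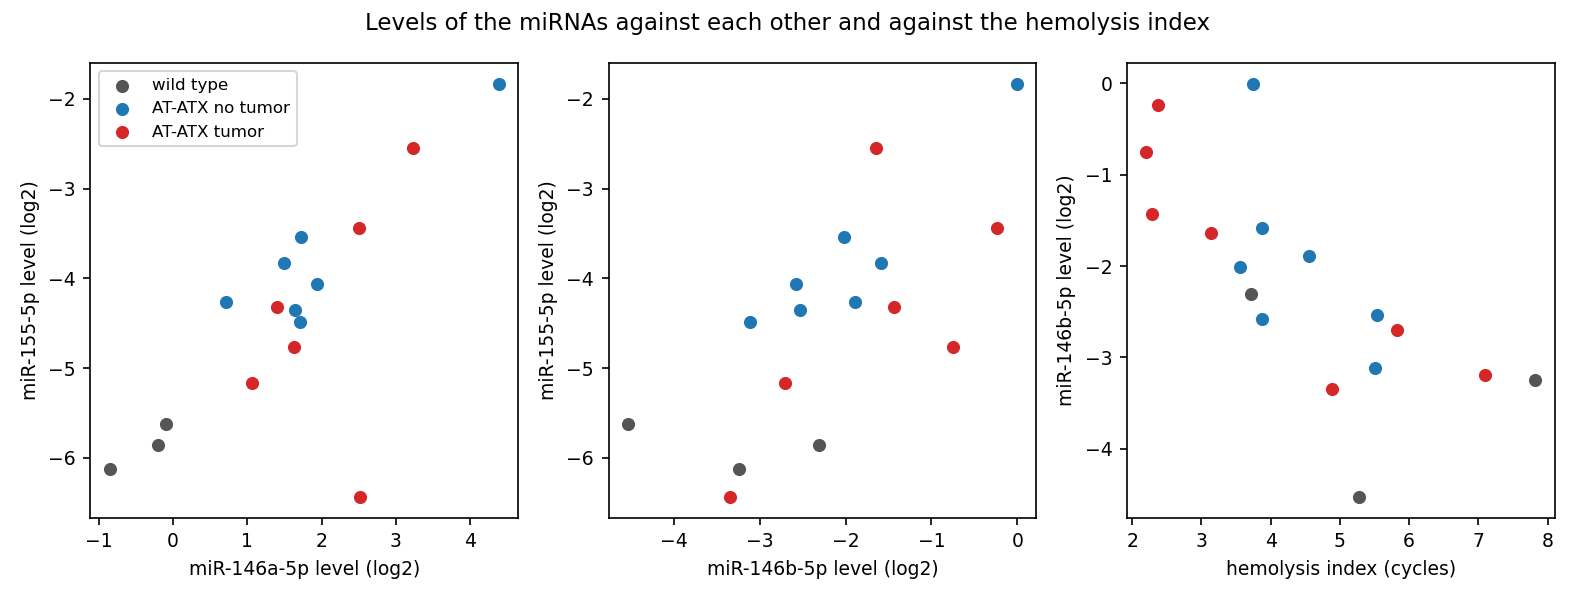
Left and centre, level of miR-155-5p against miR-146a-5p and miR-146b-5p in each serum; right, level of miR-146b-5p against the hemolysis index in cycles (points are mice, colours the groups, levels log2). Wild-type sera lie at the lower left of the left panel, tumor-free replicate 7 at the upper right at 4.38 and -1.83, and miR-146b-5p is lower where the index is higher.

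The assays whose levels followed each member most closely were taken from those detected in all sera, by Pearson's r after group means were taken off. These values share the panel mean and the sera, and are a description. miR-146a-5p was followed most closely by miR-219a-5p (r = 0.88), the lymphocyte miRNA miR-150-5p (0.83), miR-338-3p (0.75, and 0.73 for its rat-named assay) and miR-29c-3p (0.72) over 17 sera. miR-146b-5p was followed by its own rat-named assay (0.89), miR-29c-3p (0.77), miR-709 (0.75), miR-27a-3p (0.74) and miR-27b-3p (0.72). miR-155-5p was followed over 16 sera by miR-33-5p (0.86), miR-339-5p (0.80), miR-1839-3p (0.79), miR-29c-3p (0.72) and miR-709 (0.69). By Spearman's rho the order among these assays differed. For miR-146a-5p, rho was 0.68 with miR-219a-5p, against 0.82 with miR-338-3p and 0.77 with miR-150-5p. For miR-155-5p, rho was 0.65 with miR-33-5p, against 0.77 with miR-1839-3p and 0.76 with miR-339-5p. miR-29c-3p stood among the 5 closest for all 3 members, and its seed differs from both of theirs.
miR-29c-3p: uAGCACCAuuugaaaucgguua
miR-219a-5p: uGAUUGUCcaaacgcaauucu
miR-33-5p: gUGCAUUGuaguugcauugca
These sequences, from the same source and with the seed in capitals, show that these companions carry other seeds than the members. The seed-sharing pair ranked lower in each other's list: miR-146b-5p was 29th of 251 for miR-146a-5p, and miR-146a-5p 41st of 251 for miR-146b-5p. For miR-155-5p, miR-146b-5p was 6th and miR-146a-5p 8th of 252.

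The companions did not all differ between groups as the members did. In tumor mice, rat-named miR-338-3p rose by 2.55 over wild type (limma adjusted p = 0.0209), and the mouse-named assay was 1.95 higher (limma adjusted p = 0.0857). miR-219a-5p, which by Pearson's r but not by rho followed miR-146a-5p most closely within groups, differed little from wild type. The difference was -0.01 with tumors and 0.22 without tumors (limma adjusted p = 0.989 and 0.771). miR-33-5p was 2.40 higher in tumor-free mice and 1.13 higher in tumor mice than in wild type (limma adjusted p = 0.132 and 0.351). miR-29c-3p was 1.07 and 0.95 higher (limma adjusted p = 0.218 and 0.258). The rat-named miR-338-3p call was lost without wild-type replicate 2 (2.25, limma adjusted p = 0.104) or wild-type replicate 3 (2.22, limma adjusted p = 0.104) and in 5 of 16 other settings, among them raw Ct (1.17) and spike-ins (1.44).

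The other miRNAs known from inflammatory responses were counted as a list. Of 18 listed, 17 were tested, and 0 of 17 passed in tumor against tumor-free mice, 0 of 17 in tumor-free against wild-type mice and 1 of 17 in tumor against wild-type mice. Over all assays, 1.48%, 0.592% and 8.28% passed in the same order. At an unadjusted p under 0.05, the limma fit gave 5, 3 and 3 of the 17, where 16.9%, 22.5% and 25.1% of all assays reached it. The median difference of the list was 0.34, 0.13 and -0.03 in that order, against 0.14, 0.03 and 0.19 for all assays, and 10, 9 and 8 of the 17 were above 0, where 55.6%, 50.9% and 54.1% of all assays were.

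The miRNA of that list that passed was miR-223-3p, a regulator of neutrophils and other myeloid cells, which rose by 1.96 in tumor mice over wild type (SE 0.56, limma adjusted p = 0.0333). It was 1.28 higher in tumor-free mice (limma adjusted p = 0.187). The rat-named assay for miR-223-3p was 1.02 higher in tumor mice (SE 0.56, limma adjusted p = 0.259) and did not pass, and its direction turned on raw Ct (-0.36) and with spike-ins (-0.098). The call of the mouse-named assay was lost without wild-type replicate 2 (1.71), wild-type replicate 3 (1.82) or tumor replicate 2 (1.88), and in 7 of 16 other settings, among them raw Ct (0.58). The list members farthest from 0 in the same comparison after it were let-7e-5p at -1.35 and miR-9-5p, a neuronal miRNA also induced in monocytes, at -1.25 (limma adjusted p = 0.207 and 0.320). In tumor-free against wild-type mice miR-9-5p at -1.93 and miR-222-3p at -1.41 were farther from 0 (limma adjusted p = 0.175 and 0.157). In tumor against tumor-free mice they were miR-132-3p at 1.22, miR-181a-5p, known from lymphocyte development, at -1.21, and miR-210-3p, which is induced by low oxygen, at 1.02 (limma adjusted p = 0.120, 0.141 and 0.161).

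Markers of the blood cells that make these miRNAs were set beside them. The lymphocyte list (miR-150-5p, miR-342-3p and miR-181b-5p, 3 of 3 measured) had a mean level of 0.41 to 1.03 in wild-type, 0.62 to 2.31 in tumor-free and 0.26 to 2.71 in tumor mice. The highest sera of each transgenic group were tumor-free replicate 7 and tumor replicate 6, which also had the highest miR-146a-5p and miR-155-5p of their groups. Tumor-free replicate 6 was close to replicate 7, at 2.25 against 2.31. Its miR-146a-5p level was 1.72, near the group median of 1.71, and its miR-155-5p level -3.54. miR-150-5p, the defining marker of the list, reached 6.97 in tumor-free replicate 7 and 6.96 in tumor replicate 6, against group medians of 4.28 and 3.74 and wild-type levels of 2.89 to 3.73. It was 1.41 (tumor-free) and 0.76 (tumor) higher than in wild type (limma adjusted p = 0.322 and 0.639). In the same order miR-342-3p differed by 0.17 and 0.69, and miR-181b-5p by 0.47 and -0.18, and neither passed.

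The myeloid and pan-leukocyte list (3 of 3 measured) had a mean level of 3.95 to 5.40 in wild-type, 3.60 to 4.95 in tumor-free and 2.81 to 5.59 in tumor mice. The members did not move alike: miR-142-3p, found in all blood lineages, fell by 3.91 in tumor mice against wild type (limma adjusted p = 0.0467), while miR-223-3p rose. The third member, miR-142-5p, was 0.86 higher in tumor mice and 0.92 higher in tumor-free mice than in wild type (limma adjusted p = 0.405 and 0.391). The miR-142-3p call was lost in 13 of 17 fits that left out 1 mouse, with values from -4.54 to -3.02, and kept without wild-type replicate 1 or tumor replicate 3, 4 or 6; it was also lost in 6 of 16 other settings.

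The red cell list (3 of 4 on the panel) ranged from 8.60 to 10.8, 7.77 to 9.74 and 7.18 to 10.6 in wild-type, tumor-free and tumor mice. All 3 measured members were below 0 against wild type in both transgenic groups and none passed; miR-451a, its defining marker, differed by -0.49 in tumor-free and -0.43 in tumor mice (limma adjusted p = 0.686 and 0.754). The platelet list (3 of 4 on the panel) ranged from 1.76 to 3.31, 2.90 to 3.73 and 2.38 to 4.09, and miR-24-3p differed from wild type by 0.16 and 0.67 (limma adjusted p = 0.838 and 0.320). Its other measured members did not move alike. miR-199a-3p differed by 2.35 and 2.02 (limma adjusted p = 0.161 and 0.176), and miR-191-5p by -0.20 and -0.03 (limma adjusted p = 0.799 and 0.978). None of the 3 measured platelet members passed in any of the comparisons. The endothelial list (2 of 2) ranged from 1.36 to 3.24, 1.03 to 1.78 and -0.58 to 1.82, with its lowest value in tumor replicate 5. Its marker miR-126a-3p differed from wild type by -0.48 and -0.90 (limma adjusted p = 0.611 and 0.320). Both members were below 0 in each comparison and neither passed. Over all assays, 50.9% were above 0 in tumor-free and 54.1% in tumor mice against wild type, and 55.6% in tumor against tumor-free mice. The shares of all assays that passed were 0.592%, 8.28% and 1.48% in that order.

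The liver list (4 of 4) had a mean level of 3.94 to 4.98 in wild-type, 3.55 to 4.94 in tumor-free and 1.99 to 3.77 in tumor mice, so no tumor serum reached the lowest wild-type serum. All 4 members were below 0 in tumor mice against wild type, where 2 of 4 passed as lower, and against tumor-free mice, where 1 of 4 passed. Over all assays, 8.28% passed in either direction against wild type and 1.48% against tumor-free mice. Differences above 0 made up 54.1% and 55.6% of all assays in that order. miR-122-5p, the most abundant miRNA of hepatocytes, differed by -1.75 from wild type and by -1.63 from tumor-free mice (limma adjusted p = 0.136 and 0.123). The members that passed, named after their values were seen, were miR-802-5p and miR-192-5p. miR-802-5p fell in tumor mice by 2.26 against wild type and by 1.99 against tumor-free mice (limma adjusted p = 0.00776 and 0.0105). Its rat-named assay fell by 3.76 and 2.15 (limma adjusted p = 0.00193 and 0.0200), the latter losing its call when tumor replicate 3 (-1.87), tumor replicate 4 (-2.01) or the first (-2.02), the third (-2.03) or the sixth (-2.09) tumor-free mouse was left out. The calls of the mouse-named miR-802-5p assay held in all 17 fits that left out 1 mouse and were lost in 4 of 16 other settings against wild type and 5 of 17 against tumor-free mice, spike-ins (-3.38 and -2.03) and reference miRNAs (-2.19 and -2.41) among them. miR-192-5p fell by 1.57 against wild type (limma adjusted p = 0.0199), a call lost without wild-type replicate 1 (-1.29) or 3 (-1.52) and in 5 of 16 other settings. In tumor-free mice against wild type 3 of the 4 liver members were below 0 and none passed. Of all assays, 50.9% were above 0 there and 0.592% passed.

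The part of these cell sources in the levels of miR-146 and miR-155 was not tested. In serum, more release by a cell, more cells and a change in the remaining miRNAs cannot be told apart.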

How the data were processed

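Per the labels' protocols, serum came from blood drawn when the mice were necropsied, and RNA from 50 µL of it was reverse transcribed and amplified over 40 cycles with SYBR Green on a commercial serum miRNA panel of 2 plates. The deposited table holds Ct values, called non-normalized by its name, for 365 assays (317 mouse-named, 40 rat-named, 8 controls) in 17 samples. Threshold, detection limit and plate calibration are not given in the sources used here. Empty cells were taken as not detected.

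Levels were the mean Ct of 252 shared assays minus the assay's Ct. Assays detected in at least 2 wild-type, 5 tumor-free and 5 tumor mice were tested (338; 19 were set aside) in 1 fit with 3 group means (limma 3.58.1, R 4.3.3; two-sided, Benjamini-Hochberg within each comparison, threshold 0.05), which gives every adjusted p for a single miRNA unless another setting, a left-out mouse or a permutation test is named. The fit omits the undetected miR-155-5p value. Pair differences used exact two-sided permutation tests; relations used 100000 permutations within groups, two-sided. Decimal endings split the assays into sets of 245 and 120, taken as plates, and all 4 assays of the members lie in the same set. In 4 samples (tumor-free replicates 4, 5 and 7, tumor replicate 1) there is 1 ending only. No sample duplicated another (the smallest SD of the Ct difference between 2 samples was 0.841). Each label names 1 mouse, so the spread is that between animals. The fit and the permutation tests were tested on simulated data.

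The members and lists were chosen with earlier results of these data known. Named miRNAs were the 3 members, the rat-named assay, the 5 closest assays to each, members of the inflammatory list that passed or were among the 3 farthest from 0 in a comparison, and the defining marker of each cell source. Of the 317 mouse-named assays, 260 matched a RefSeq mature sequence.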

Additional observations from a re-analysis of the deposited data

Results flagged for a closer look

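Of 26 groups of values checked for a sample far from the rest, 3 held such a sample, and chance alone gives about 1 in 20. The miR-146a-5p level of tumor-free replicate 7 was 4.38, with the nearest mouse of its group at 1.94. The miR-155-5p level of the same serum was -1.83, with the nearest at -3.54. This serum had a hemolysis index of 3.74, a mean Ct of 29.2 and 351 detected assays, each inside the range of its group, and it is among the 4 samples whose values carry 1 decimal ending. The within-sample difference of miR-146a-5p and miR-155-5p in tumor replicate 5 was 8.95, with the nearest tumor mouse at 6.39. The label of this animal carries a question mark, and its endothelial marker level of -0.58 was the lowest of all sera. The cause of these values was not tested.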

How the results depend on the processing

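The labels give no replicate numbers, so replicates were numbered in accession order and pair nothing. A number of unstated meaning in the transgenic labels is shared by 3 tumor-free and 3 tumor mice (77 and 85). As a random block (consensus correlation 0.0703) it changed no call of a member. As a fixed block in the transgenic mice only, with 4 residual degrees of freedom and chosen after seeing the data, it gave -0.88 for miR-146a-5p, 0.20 for miR-146b-5p, -0.26 for miR-155-5p and -0.54 for the rat-named miR-146b-5p assay between tumor and tumor-free mice, none passing. Among the 3 members against wild type, the call that changed was that of miR-146a-5p in tumor mice (2.22). It was lost with reference miRNAs (2.29), raw Ct (0.84), spike-ins (1.10), quantile normalization (2.13), the hemolysis index as covariate (1.78), only the 2 groups compared (2.22), the decimal ending as block (2.11) and the exact permutation test (2.22, adjusted p = 0.217), and in 13 of 17 fits without 1 mouse (1.98 to 2.44). Over all alternatives its adjusted p ran from 0.0191 to 0.624. Leaving out 1 mouse gave 1.92 to 2.53 for miR-146a-5p and 1.78 to 2.22 for miR-155-5p in tumor-free mice. Between tumor and tumor-free mice, no member passed in any fit, and the direction of miR-146a-5p (-0.11) turned with the median of the shared assays (0.013) and the decimal ending as block (0.11). That of miR-146b-5p (0.06) turned with reference miRNAs (-0.36), raw Ct (-0.30), the mean per plate (-0.0091) and the hemolysis covariate (-0.13). That of its rat-named assay turned with reference miRNAs (-0.20), raw Ct (-0.15) and the hemolysis covariate (-0.065), and against wild type with raw Ct (-0.028). Leaving out 1 mouse gave -0.34 to 0.30, -0.22 to 0.38 and -0.14 to 0.58 for these 3 assays between tumor and tumor-free mice. The rat-named miR-223-3p assay turned against wild type with raw Ct (-0.36) and spike-ins (-0.098). Of the pair differences, leaving out 1 mouse gave -0.52 to 0.062 for miR-146a-5p minus miR-146b-5p between tumor and tumor-free mice. For miR-146b-5p minus miR-155-5p it gave -0.46 to 0.77 between tumor and wild-type mice and 0.70 to 1.32 between tumor and tumor-free mice. The assays passing over the panel numbered 5 between tumor and tumor-free, 2 between tumor-free and wild-type and 28 between tumor and wild-type mice. They ranged from 0 to 13, 0 to 10 and 0 to 33 over the other settings. Exact permutation tests passed 0 in each comparison, with 57, 85 and 45 at an unadjusted p under 0.05. The smallest adjusted p over all assays was 0.0591, 0.0828 and 0.201 in the same order. With 7 mice against 3 these tests cannot give a p below 0.00833, so a call lost under them against wild type says nothing about stability. With 7 against 7 the smallest possible p is 0.000583. Between tumor and tumor-free mice miR-802-5p lay at that limit, with an unadjusted p of 0.000583 and an adjusted p of 0.0591 (exact permutation test). The loss of its call under that test therefore says nothing about stability either. miR-155-5p was not tested with a detection limit of Ct 35 or with only assays detected in all samples. The cause of these changes was not tested.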
